A study of Rattus norvegicus with 72 samples.

Results

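Chromosome 1 is the rat chromosome that carries Ube3a, the gene deleted in this series, and the results below concern the methylation regions listed on it. Every region whose chromosome was given as 1 was taken, with no selection on its level. Below, 3 values given together without a label are those of the control, maternal and paternal tables, in that order. This gave 1855 of 16244 regions (11.4%) in a table of wild-type (WT) libraries only, called the control table here, 2060 of 18335 (11.2%) in a maternal table and 1527 of 13875 (11.0%) in a paternal table. In all, 5442 of 48454 listed regions (11.2%) lay on chromosome 1, and each had a level in all 12 libraries of its table. Whole-genome bisulfite sequencing, which reads unmethylated cytosines as thymines, was applied to hypothalamus DNA of female rat pups on postnatal day 2 (P2) or 9 (P9). The pups carried a UBE3A deletion or were WT, and each library bears a maternal or paternal parent-of-origin label, WT littermates included. The sources used here do not give the strain, the design of the deletion or whether a library came from 1 pup.

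Ube3a encodes an E3 ubiquitin ligase, an enzyme that tags proteins for breakdown. It is imprinted in neurons, which express it mainly from the maternal copy while an antisense transcript silences the paternal copy. Imprinted genes are controlled from regions whose CpG methylation differs between the parental copies, and a sample holding both copies then shows an intermediate level. Over the rest of the genome most CpGs are highly methylated, and CpG-dense promoters are mostly unmethylated. These sentences are background, and the levels below do not separate the parental copies. Regions are given by position in rn6. The position of Ube3a in that build and its gene annotation were not used here, so no region is tied to a gene.

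The 24 DNA libraries were split between the maternal and paternal tables, which shared 0 libraries, with 6 WT and 6 deletion libraries in each. Labels and tables disagreed for some of them. The maternal table held 4 libraries labelled paternal (2 WT and 2 deletion, all P2), and the paternal table held 2 labelled maternal (1 WT and 1 deletion, both P9). By label the maternal table had 5 WT and 5 deletion libraries at P2 and 1 of each at P9, while the paternal table had 2 of each at P2 and 4 of each at P9. The control table held the 12 WT libraries of the other tables, 5 labelled maternal and 7 labelled paternal, so its values are not independent of theirs. The names of the libraries begin with JL3, JL4 or JL5, which makes 3 name series and is the only hint of a batch in the labels. Libraries of the JL3 series stood apart at part of the regions, as given at the end. In the paternal table the JL3 libraries were the same 2 whose label did not match the table, so name series and label cannot be told apart there. The 4 libraries of the maternal table with a label that did not match were exactly its JL4 libraries, with the same limit. All 4 P2 libraries of the paternal table were JL5, which ties age to name series as well. Among the WT libraries of the control table both JL3 libraries were labelled maternal and all 4 JL4 libraries paternal. The tables analysed here give a level and a number of CpGs but no read coverage, so the depth behind each value is unknown. The submitters' descriptions call the listed regions a background. The rule by which they were drawn is not given in the sources used here, so the values cannot be taken as independent of it. Over all regions of a table the correlation between libraries ranged from 0.825 to 0.917, and 0 pairs of libraries held identical values. Nothing in the labels says that libraries of a group came from separate animals, so p-values measure the spread between libraries, which may be technical. Replicate numbers were assigned here and only name a library.

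Regions on chromosome 1 were slightly denser than on the other autosomes as a whole. Density was the number of regions divided by the span from the first to the last region. It was 6.58 per Mb against 6.13 over chromosomes 2 to 20 for the control table, 7.31 against 6.87 for the maternal and 5.41 against 5.25 for the paternal. Chromosome 1 ranked 8, 8 and 10 among the 20 autosomes. Single chromosomes spread far more widely, from 2.82 to 16.5, from 3.19 to 18.0 and from 2.27 to 14.3 per Mb. Chromosome 2 was the lowest and chromosome 12 the highest each time. These densities are counts with no replicate, and no test was made.

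**Figure D1:**
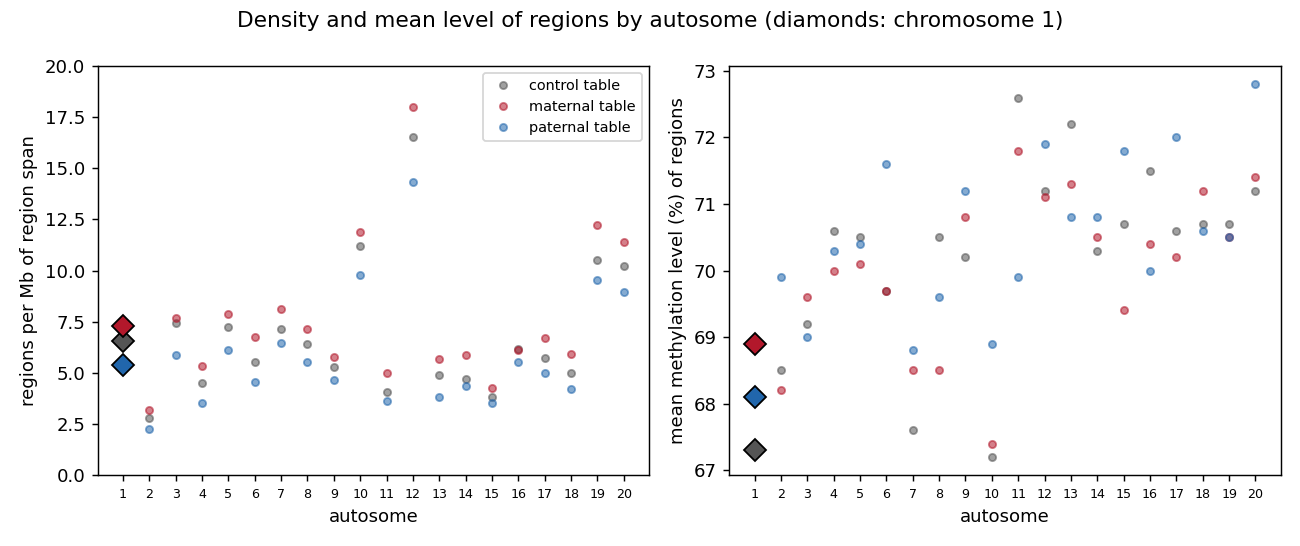
Regions per Mb (left) and mean methylation level of regions in percent (right) for each autosome, with 1 point per table and diamonds for chromosome 1. Chromosome 1 lies in the middle of the densities (ranks 8, 8 and 10 of 20) and low among the mean levels (ranks 19, 16 and 20 of 20); the axis of the right panel does not start at 0.

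Along the chromosome the regions were unevenly spread, and the same stretches were dense in all 3 tables. In bins of 10 Mb the stretch from 80 to 90 Mb held the most regions, 181, 186 and 150. In bins of 5 Mb the densest began at 100 Mb instead, in all 3 tables. The median 10 Mb bin of chromosome 1 held 61, 73.5 and 48 regions. Second came the bin from 210 to 220 Mb, with 159, 155 and 132 regions. The third was the bin from 260 to 270 Mb in the control table (137 regions) and that from 100 to 110 Mb in the maternal (153) and paternal (117) tables. Together the 3 densest bins held 25.9%, 24.2% and 26.3% of the regions of chromosome 1. The emptiest bin ran from 110 to 120 Mb, next to one of the dense stretches, with 2, 5 and 1 regions. Leaving out the incomplete last bin, the next emptiest were the bins starting at 150 Mb (10 regions) and 60 Mb (14) in the control table, at 150 Mb (6) and 230 Mb (10) in the maternal table, and at 230 Mb (6) and, tied, 60 and 150 Mb (11 each) in the paternal table. On the other autosomes the median bin held 44, 52 and 39 regions, and 11, 10 and 12 bins there held at least as many as the densest bin of chromosome 1.

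**Figure D2:**
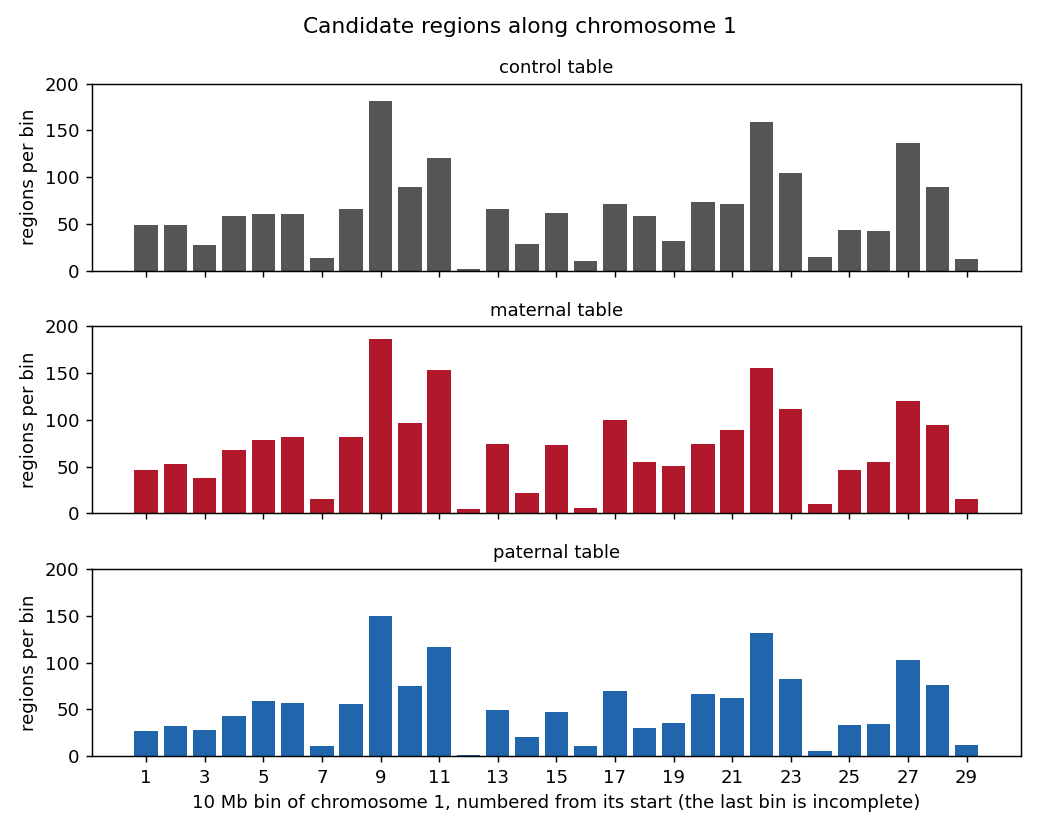
Number of regions in each 10 Mb bin of chromosome 1, numbered from its start, for the control, maternal and paternal tables. The ninth bin (80 to 90 Mb) is the tallest in each table, with 181, 186 and 150 regions, and the bin from 110 to 120 Mb holds 2, 5 and 1.

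Most regions were short and held few CpGs. Regions of chromosome 1 held a median of 6 CpGs and at least 5 in each table, as on the other autosomes, and their median width was 438, 506 and 437 bases. Regions of at least 10 CpGs numbered 191, 224 and 153 (10.3%, 10.9% and 10%), against 9.65%, 9.89% and 9.05% elsewhere. The regions richest in CpGs on any autosome were on chromosome 1. Their CpG counts were 341 (control table, 11904450 to 11907451, 3002 bases), 360 (maternal table, 11909755 to 11912357, 2603 bases) and 89 (paternal table, 11906731 to 11907334, 604 bases). All 3 lay within the same few kilobases, while the highest count on chromosomes 2 to 20 was 85, 67 and 44. The longest regions were elsewhere on the chromosome, with 3871 bases (166072670 to 166076540), 4372 bases (87384855 to 87389226) and 4089 bases (277046488 to 277050576). Neighbouring regions started a median of 43.7, 37.2 and 50.5 kb after the end of the one before, and 1.83%, 1.21% and 2.03% of the gaps were within 1 kb.

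Mean methylation on chromosome 1 was lower than on the other autosomes in every library of every table. The mean level over regions was 67.3% against 70.0%, 68.9% against 69.8% and 68.1% against 70.3%. With the autosomes ordered from the highest mean level, chromosome 1 ranked 19, 16 and 20 of 20. The medians lay closer together, at 75.8% against 76.6%, 76.1% against 76.3% and 76.2% against 77.3%. Levels under 25% were called low and levels over 75% high. Low regions numbered 156 (8.41%, elsewhere 5.63%), 136 (6.60%, elsewhere 6.01%) and 123 (8.06%, elsewhere 5.86%). High regions made up 52.1%, 53.0% and 52.9% of chromosome 1 and 55.1%, 54.0% and 57.0% of the rest. Regions of at least 10 CpGs were the less methylated, with a mean level on chromosome 1 of 48.1%, 55.6% and 52.1% against 69.5%, 70.6% and 69.9% for regions with fewer. Dense stretches differed in level. The bin from 80 to 90 Mb had a mean of 63.2%, 63.8% and 62.7%, that from 270 to 280 Mb 77.7%, 77.3% and 76.2%, and that from 220 to 230 Mb 57.3%, 62.4% and 58.4%. Regions whose level ranged over more than 50 percentage points between libraries numbered 55 (2.96%), 57 (2.77%) and 36 (2.36%) on chromosome 1, against 1.79%, 1.83% and 1.72% elsewhere.

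The gap between chromosome 1 and the other autosomes was compared between genotypes with 1 value per library. Among maternal-table libraries the mean level of chromosome 1 minus that of the other autosomes was -0.923 ± 0.138 percentage points with the deletion and -0.75 ± 0.258 in WT (SD, n = 6 each). The values ran from -1.18 through a median of -0.882 to -0.784 with the deletion and from -0.985 through -0.835 to -0.306 in WT, so the groups overlapped. Their difference of -0.17 points gave p = 0.23 (exact permutation of libraries within age, two-sided). Permuted within age and name series it was -0.238 points (exact permutation p = 0.0556), and with only the libraries labelled maternal -0.294 (exact permutation p = 0.2). It was positive, 0.109 points, over regions of at least 10 CpGs only (exact permutation p = 0.829), and 0.915 points with regions weighted by their CpGs (exact permutation p = 0.167). Paternal-table libraries had -2.16 ± 0.36 points with the deletion and -2.39 ± 0.459 in WT (SD, n = 6 each). They ran from -2.48 through -2.22 to -1.51 and from -2.9 through -2.43 to -1.56, again overlapping, and the difference of 0.232 points gave an exact permutation p of 0.276. The 2 JL3 libraries were the highest of their genotype in that table. Permuted within age and name series, the same 0.232 points gave an exact permutation p of 0.0417. Without the WT library of that series (maternal P9 WT replicate 1) the difference was 0.374 points (exact permutation p = 0.0333). Without its deletion library (maternal P9 deletion replicate 1) it was 0.129 points (exact permutation p = 0.533). These were the extremes of 12 fits with 1 library left out, and only the former had a p under 0.05. Without both JL3 libraries the difference was 0.27 points (exact permutation p = 0.05).

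**Figure D3:**
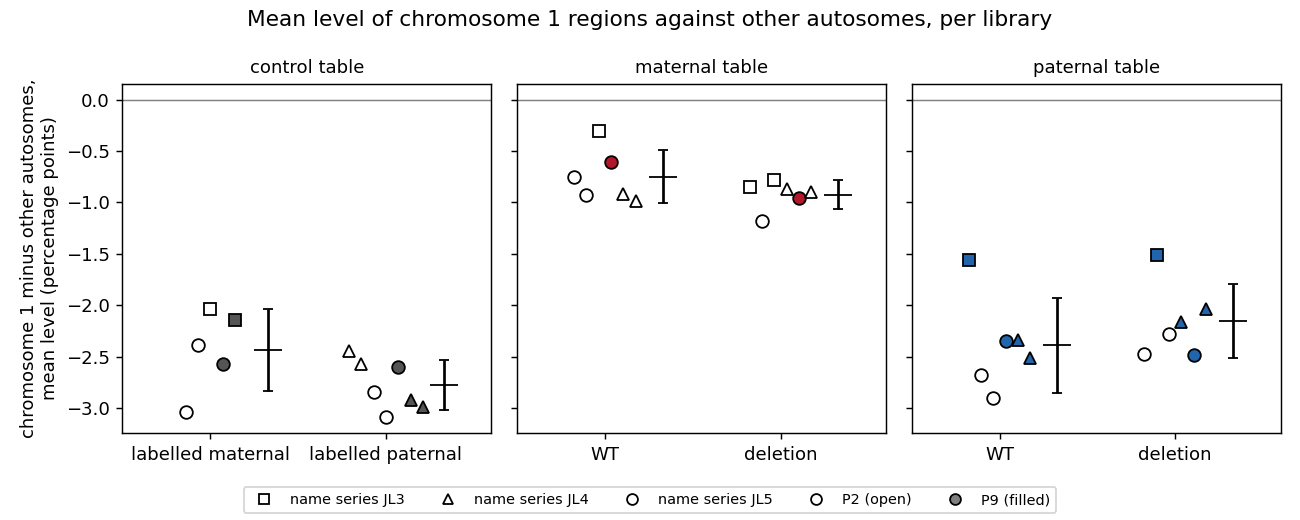
Mean level of chromosome 1 regions minus mean level of regions on the other autosomes, in percentage points, for each library, by parental label (control table) or genotype (maternal and paternal tables). Bars to the right of the points give the mean and SD, symbols the name series and filling the age; all 36 values lie below 0, and both squares of the paternal table (-1.56 and -1.51) lie above the other 10 libraries.

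No region of chromosome 1 passed the test for the deletion in the maternal table. The levels of all regions of the table were fitted together with limma, with genotype and age as terms and Benjamini-Hochberg adjustment over the table, and a region was called at an adjusted p under 0.05. Of 2060 regions 0 were called, against a background of 0 of 18335 (0.0%) over the whole table. At an unadjusted limma p under 0.05 there were 189 (9.17%), against a background of 9.04%. Of the 2060, 955 (46.4%) were higher and 1105 lower with the deletion, and 47.2% were higher on the other autosomes. The median difference, deletion minus WT, was -0.47 percentage points, against -0.309 elsewhere, and 33.2% of regions lay within 2 points of 0. Differences above 10 points numbered 37 higher (1.8%, background 1.94%) and 53 lower (2.57%, background 2.19%). Genotype groups that did not overlap were found at 10 regions (0.485%, background 0.442%). Of these, 2 were higher and 8 lower with the deletion (0.0971% and 0.388%). The other autosomes also had more lower than higher, 44 against 27 (0.277% and 0.17%).

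The 4 maternal-table regions with the lowest p were 2 that were higher with the deletion and 2 that were lower. At 219361119 to 219363505 (2387 bases, 12 CpGs) the level in deletion libraries ran from 91.8% through a median of 93.3% to 95.1%, and in WT from 75.7% through 85.7% to 87.1%. The groups did not overlap there, and the difference was 9.43 points (SE 1.99, 95% interval 5.26 to 13.6, limma adjusted p = 0.368). It was 9.67 points without the JL3 libraries and 11.2 with only the libraries labelled maternal. At 36339290 to 36340433 (7 CpGs) deletion libraries ran from 82.9% through 85.2% to 87.2% and WT from 89.1% through 92.3% to 94.7%. These groups did not overlap either, with a difference of -7.04 points (SE 1.79, limma adjusted p = 0.388). The other 2 had overlapping groups. The region from 82222247 to 82222977 (6 CpGs) had means of 79.2 ± 6.77% with the deletion and 65.2 ± 9.56% in WT, and that from 84523421 to 84524634 (5 CpGs) 78.8 ± 4.05% and 90.1 ± 6.10% (SD, n = 6 each), both with a limma adjusted p of 0.388.

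The CpG-richest region of the maternal table, at 11909755 to 11912357 (360 CpGs), varied widely within each genotype. Deletion libraries ran from 42.4% through a median of 63.6% to 84.2% and WT libraries from 15.8% through 32.9% to 63.4%. The difference was 24.8 points (SE 8.3, 95% interval 7.47 to 42.2, limma adjusted p = 0.424), the largest positive difference of the table on chromosome 1. The groups overlapped, with 3 of 6 WT libraries (47.1%, 59.0% and 63.4%) inside the deletion range. Its neighbour from 11904526 to 11907067 (288 CpGs) had means of 54.8 ± 21.9% with the deletion and 34.4 ± 14.3% in WT (SD, n = 6 each), a difference of 20.4 points. Its JL3 libraries were at 73.3% and 84.0% (deletion) and 56.4% (WT), and the difference was 12.3 points without them and 13.3 with name series as a term. Of the other 5 maternal-table regions between 11903688 and 11966855, 4 differed by -0.51 to 5.35 points. The last, at 11966702 to 11966855 (21 CpGs), was lower with the deletion by -16.1 points (SE 9.18, limma adjusted p = 0.602), or by -28.3 without the JL3 libraries and -7.34 without maternal P9 WT replicate 2. In the paternal table the CpG-richest region of that stretch, 11906731 to 11907334 (89 CpGs), had 44.0 ± 18.6% with the deletion and 40.4 ± 22.1% in WT (SD, n = 6 each), a difference of 3.62 points with a 95% interval from -14.9 to 22.1. Nearby, the paternal-table region from 11967006 to 11967120 (12 CpGs) had 68.3 ± 21.5% and 45.6 ± 28.9% (SD, n = 6 each), a difference of 22.6 points (SE 9.19, limma adjusted p = 0.629), opposite in sign to the maternal-table region just before it.

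Paternal-table libraries likewise gave no called region on chromosome 1. By limma 0 of 1527 regions were called, against a background of 1 of 13874 (0.00721%), and 102 (6.68%) had an unadjusted p under 0.05, against 7.73% over the table. Here 813 regions (53.2%) were higher and 714 lower with the deletion, and 51.5% were higher on the other autosomes. The median difference was 0.382 points, against 0.179 elsewhere, and 35.2% of regions lay within 2 points of 0. With P2 libraries only, 46.4% were higher, and with P9 libraries only 56.0%. Differences above 10 points numbered 22 higher (1.44%, background 1.64%) and 26 lower (1.7%, background 1.64%). The genotype groups did not overlap at 7 regions (0.458%, background 0.375%).

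The lowest p of the paternal table on chromosome 1 belonged to a CpG-rich region at 36750550 to 36750750 (201 bases, 29 CpGs). Deletion libraries there ran from 12.8% through a median of 48.2% to 71.1%, and WT libraries from 64.6% through 78.7% to 95.3%. The 2 highest deletion libraries, at 66.5% and 71.1%, fell within the WT range and the other 4, from 12.8% to 57.1%, below it. The difference was -31.0 points (SE 6.81, 95% interval -45.2 to -16.8, limma adjusted p = 0.607), the largest of either sign on chromosome 1 in this table. Without the JL3 deletion library (maternal P9 deletion replicate 1, at 71.1%) it was -37.4 points with a limma adjusted p of 0.0384, the single call on chromosome 1 in any fit of the deletion. Without both JL3 libraries it was -34.8 points with a limma adjusted p of 0.149. The other 3 regions of lowest p had limma adjusted p of 0.607, 0.607 and 0.615. At 222210966 to 222212230 (6 CpGs) deletion libraries ran from 84.8% through 86.6% to 91.4% and WT from 70.3% through 78.5% to 81.4%, without overlap, a difference of 9.98 points (SE 2.56). At 93910592 to 93911330 (8 CpGs) the means were 74.1 ± 9.80% with the deletion and 89.0 ± 6.23% in WT, and at 101237088 to 101237294 (6 CpGs) 54.7 ± 9.77% and 37.4 ± 9.72% (SD, n = 6 each).

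A maternal-table region lay just before that CpG-rich region, at 36750114 to 36750336 (22 CpGs), and was also lower with the deletion. It is named because it had the most negative difference of the maternal table on chromosome 1, and it was picked after its values were seen. WT libraries ran from 80.5% through 84.0% to 88.5%. In deletion libraries the levels were 0.389% (maternal P2 deletion replicate 3), 24.4% (paternal P2 deletion replicate 2), 61.3% (maternal P9 deletion replicate 2), 79.0%, 84.7% and 87.5%. The mean difference of -28.2 points (SE 11.0, 95% interval -51.1 to -5.28, limma adjusted p = 0.485) came from 3 of 6 libraries, and the other 3 lay in or near the WT range. It was -16.9 points without maternal P2 deletion replicate 3 and -42.7 without the JL3 libraries, among which the genotypes differed by 0.633 points. In the control table the listed neighbour, from 36750612 to 36750750 (18 CpGs), ran from 55.5% to 97.8% among the 12 WT libraries, so WT levels also varied there.

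**Figure D4:**
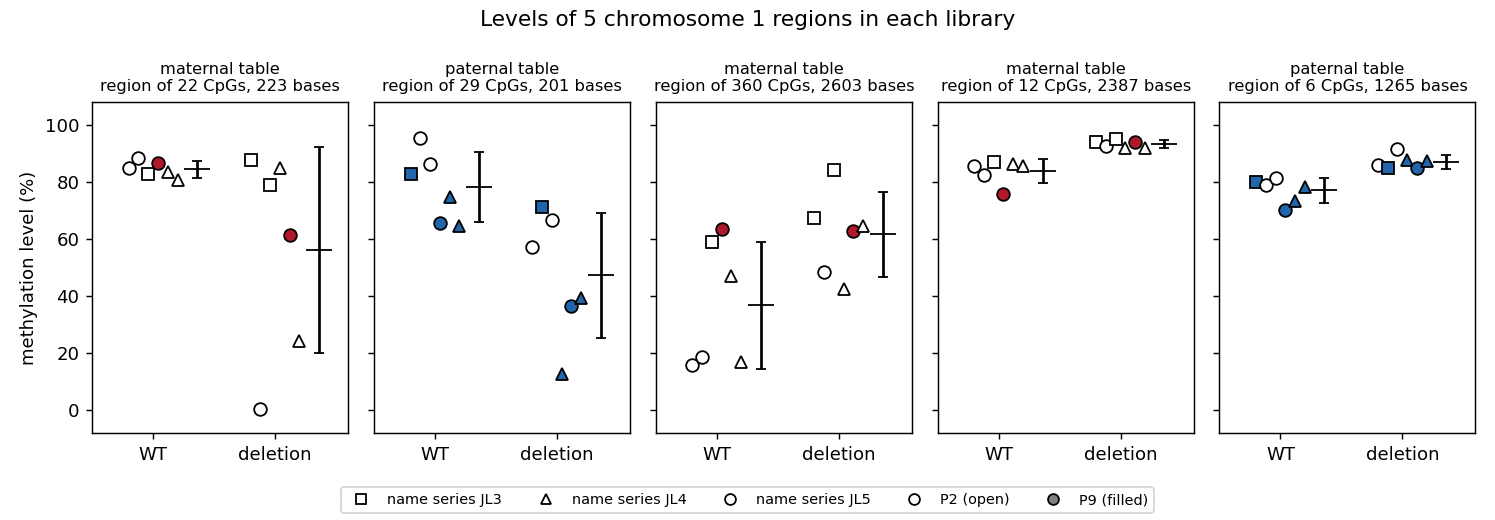
Methylation level in percent of 5 chromosome 1 regions in each WT and deletion library, with the mean and SD at the right of each group, symbols for name series and filling for age. From the left, the regions start at 36750114, 36750550, 11909755, 219361119 and 222210966; in the first, 3 of 6 deletion libraries lie near the WT range, and in the last 2 the genotypes do not overlap.

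The maternal and paternal tables shared few regions and no common direction at those they shared. Of the maternal-table regions of chromosome 1, 216 (10.5%) overlapped a paternal-table region by at least 1 base, and 220 paternal-table regions (14.4%) were overlapped, against 10% and 13.2% on the other autosomes. Among the 220 overlapping pairs, 112 (50.9%) had deletion minus WT differences of the same sign, 60 higher and 52 lower in both, and 49.1% did so elsewhere. Both differences exceeded 10 points at 2 pairs, and their signs were opposite at both. The first began at 65540237, where the difference was -15.8 points (SE 7.91) in the maternal table and 14.4 (SE 8.33) in the paternal table. The second began at 123078759, with -10.6 (SE 5.79) and 11.4 points (SE 5.18). Next by size were pairs that were lower with the deletion in both tables, 256371630 to 256372369 with 256372326 to 256372853 (-9.34 and -14.6 points) and 84490705 to 84490832 with 84489846 to 84490919 (-9.18 and -11.6 points). On the paternal side these 4 differences were larger with P2 libraries only (37.4, 25.8, -25.6 and -25.9 points, 2 libraries against 2) than with P9 libraries only (2.87, 4.15, -9.15 and -4.39). With only the libraries labelled maternal, the maternal-table difference was -7.24 at 65540237 and -4.67 at 84490705. Limma adjusted p-values of these 8 regions ran from 0.559 to 0.665.

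Shares of regions higher with the deletion also differed between stretches and between tables. In the bin from 210 to 220 Mb 56 of 155 maternal-table regions (36.1%) were higher, with a median difference of -1.21 points, and 75 of 132 paternal-table regions (56.8%), with a median of 0.604. In the bin from 200 to 210 Mb these were 36 of 89 (40.4%, median -0.806) and 43 of 62 (69.4%, median 2.02). The densest bin, from 80 to 90 Mb, had 84 of 186 (45.2%) and 75 of 150. Regions of a library share that library's DNA and are not replicates, so these shares were not tested.

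Age changed no region of chromosome 1 past the threshold. For P9 minus P2 limma called 0 of 1855, 0 of 2060 and 0 of 1527 regions (backgrounds 0.0%, 0.0% and 0.0%). At an unadjusted p under 0.05 there were 118, 139 and 113 regions on chromosome 1 (6.36%, 6.75% and 7.40%), against backgrounds of 6.44%, 6.14% and 6.94%. The lowest p of the maternal table on chromosome 1 was at 136968420 to 136968470 (5 CpGs), where the 2 P9 libraries had 72.1% and 58.1% and the 10 P2 libraries ran from 75.1% through 89.9% to 97.2%. That difference was -23.5 points (SE 4.4, 95% interval -32.7 to -14.3, limma adjusted p = 0.125), with no overlap but only 2 libraries at P9. Of the other regions named for age there, 33265643 to 33266342 was higher at P9 by 24.2 points (SE 5.35), and 267027707 to 267028657 and 192961281 to 192962118 were lower, by -17.4 (SE 3.91) and -23.1 points (SE 5.5). These rest on 2 P9 libraries. Without maternal P9 WT replicate 2 or without maternal P9 deletion replicate 2, the difference was 15.4 or 32.9 points at 33265643, -7.7 or -27.2 at 267027707 and -16.9 or -29.2 at 192961281. In the paternal table the 4 regions of lowest p were all higher at P9. The first, 266279068 to 266279940 (5 CpGs), had P2 levels from 35.9% to 43.1% (n = 4) and P9 levels from 50.3% through 57.7% to 64.0%, a difference of 18.7 points (SE 4.57, limma adjusted p = 0.505). The others were 263721574 to 263722256, 49655321 to 49655552 and 200092737 to 200092866, higher by 16.9 (SE 4.39), 12.3 (SE 3.27) and 17.6 points (SE 4.85). The first of these was 9.79 points without paternal P2 deletion replicate 4, and the last was 26.9 with name series as a term. The control table's were 11966973 to 11967013 (34.9 points, SE 7.82), 216631794 to 216631929 (13.7, SE 3.47) and 102398148 to 102398304 (16.1, SE 4.27), higher at P9, and 214954766 to 214954868 (-9.03, SE 2.26), lower, with limma adjusted p from 0.559 to 0.633. Whether the deletion difference itself depended on age was tested as an interaction. In the paternal table limma called 0 regions of chromosome 1 (background 0.0%), and 75 (4.91%, background 4.35%) had an unadjusted p under 0.05. The maternal table had 1 library of each genotype at P9, so its interaction assumes that these vary like the P2 libraries and says little about age dependence. It gave 0 calls (background 0.0%) and 136 regions (6.60%, background 5.72%) at an unadjusted limma p under 0.05.

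The control table compared WT libraries by their parental label, with no deletion involved. Of 1855 control-table regions limma called 0 (background 0.00616%, a single region elsewhere), and 129 (6.95%, background 6.72%) had an unadjusted p under 0.05. On chromosome 1 52.7% were higher in the libraries labelled maternal, against 50.1% on the other autosomes. That direction turned to 47.3% with name series as a term and 47.8% without the JL3 libraries. The other autosomes moved likewise, to 47.4% and 47.1%. With litters taken from table membership in place of the label, the share was 42.5% on chromosome 1 and 40.5% on the other autosomes. Differences above 10 points numbered 73 higher (3.94%, background 3.0%) and 30 lower (1.62%, background 1.86%), and 9 regions had groups that did not overlap (0.485%, background 0.48%). Without the JL3 libraries there were 58 higher and 73 lower by over 10 points. At 20950149 to 20950894 (5 CpGs) the libraries labelled maternal had 58.0%, 60.1%, 60.1%, 67.1% and 72.2%, and the 7 labelled paternal ran from 76.2% through 77.7% to 81.4%. The groups did not overlap, with a difference of -15.1 points (SE 3.4, limma adjusted p = 0.382). At 72558012 to 72558334 (9 CpGs) they had 56.9%, 61.5%, 76.9%, 78.1% and 82.6%, against 41.7% through 50.9% to 56.6%, a difference of 21.5 points (SE 5.07, limma adjusted p = 0.409). The remaining 2 named regions had overlapping groups, 170642564 to 170643409 with -21.8 points (SE 5.49) and 11966702 to 11966757 with 34.9 points (SE 8.87). The latter lies near the CpG-rich stretch described above. The gap between chromosome 1 and the other autosomes was -2.43 ± 0.398 points (SD, n = 5) in libraries labelled maternal and -2.78 ± 0.243 (SD, n = 7) in those labelled paternal, a difference of 0.344 points (exact permutation p = 0.111). Without maternal P2 WT replicate 2 it was 0.505 points (exact permutation p = 0.0133), the lowest p of 12 fits with 1 library left out. In the rest of those fits the exact permutation p ran from 0.09 to 0.271. Without the 2 JL3 libraries the difference was 0.111 points (exact permutation p = 0.583).

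JL3 libraries stood apart from the others at a set of regions whose levels were mostly low in the other libraries. This contrast was added after the levels were seen. With age and genotype or label as further terms, limma called 45 (2.43%, background 1.24%), 31 (1.5%, background 1.14%) and 38 (2.49%, background 1.38%) regions of chromosome 1. On the other autosomes 1.07%, 1.08% and 1.27% were called. At an unadjusted limma p under 0.05 there were 201 (10.8%, background 9.2%), 193 (9.37%, background 8.76%) and 165 (10.8%, background 8.48%). JL3 libraries were higher at all 45, all 31 and 37 of 38. The level in the other libraries was under 25% at 30, 23 and 25 of them. The median level of the called regions was 15.2%, 12.8% and 15.8% in the other libraries and 54.5%, 42.4% and 51.5% in the JL3 libraries. Regions of at least 10 CpGs made up 42.2%, 61.3% and 52.6% of those called, and 10.3%, 10.9% and 10% of all regions of chromosome 1. These traits were not particular to chromosome 1. On the other autosomes JL3 libraries were higher at 144 of 152, 166 of 171 and 149 of 153 called regions. The level in the other libraries was under 25% at 81.6%, 75.4% and 84.3% of them, and 47.4%, 46.8% and 41.8% had at least 10 CpGs. Without the JL3 WT library (maternal P2 WT replicate 1) the maternal table had 19 calls (0.922%, background 0.72%). In the paternal table leaving out the JL3 WT library leaves a single JL3 library, so that fit cannot separate the series from that library. On the logit scale the calls were 34 (1.83%, background 0.997%), 27 (1.31%, background 1.01%) and 18 of 1527.

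**Figure D5:**
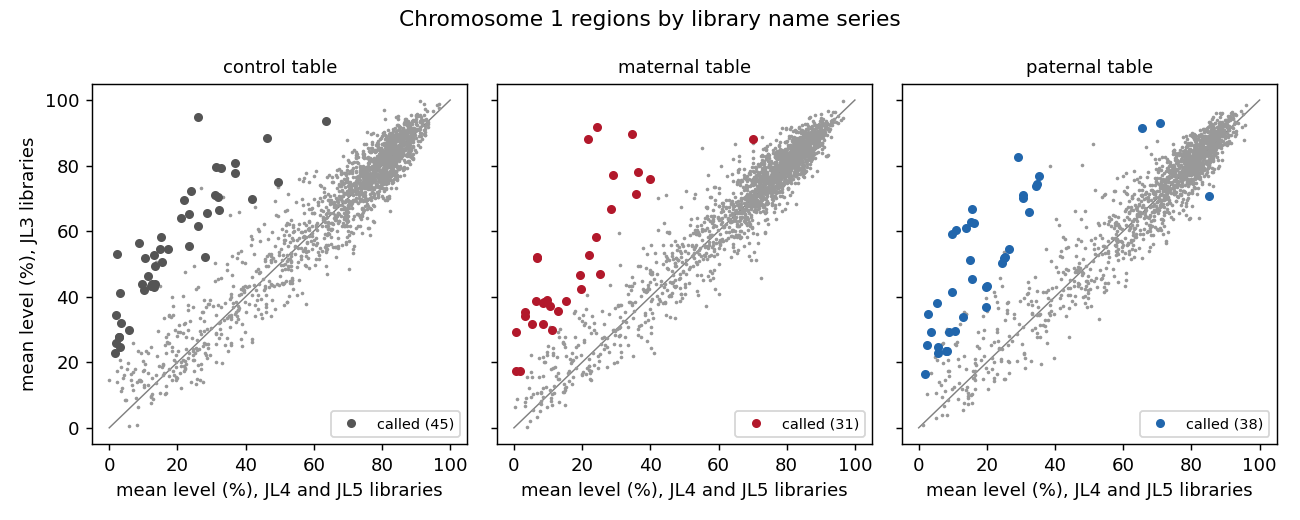
Mean level in percent of each chromosome 1 region in the JL3 libraries (vertical) against the JL4 and JL5 libraries (horizontal), with the line of equality and filled points for regions called by limma. Most called regions (30 of 45, 23 of 31 and 25 of 38) have levels under 25% in the other libraries, and all lie above the line apart from 1 in the paternal table.

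Some of the called regions lay in the same place in the maternal and paternal tables, which shared 0 libraries, and most did not. Many had no listed counterpart in the other table, so recurrence could not be seen there. Of the 31 called in the maternal table, 8 overlapped any paternal-table region and 6 (19.4%) a called one. The other way, 16 of 38 overlapped any maternal-table region and 7 (18.4%) a called one. On the other autosomes these were 49 and 33 of 171 (19.3%), and 51 and 34 of 153 (22.2%). Within 1 kb, 17 and 21 had any counterpart and 11 (35.5%) and 10 (26.3%) a called one, with 32.2% and 37.3% elsewhere. Nearly all called regions were higher in JL3, so the direction at such pairs carries no information. At 222733848 to 222733936 (9 CpGs, maternal table) the 3 JL3 libraries had 36.9%, 54.0% and 65.2%, and the other 9 ran from 2.38% through 5.88% to 14.4%. The control-table region 222734101 to 222734183 had 44.4% and 68.2% in its 2 JL3 libraries and 2.59% through 7.19% to 19.8% in the others. Its 68.2% came from maternal P2 WT replicate 1, the library that gave the 65.2% in the maternal table. At 80613315 to 80613572 (26 CpGs, maternal table) the JL3 libraries had 74.5%, 76.7% and 80.4%, against 17.2% through 28.8% to 49.2%. The overlapping paternal-table region 80613215 to 80613405 (18 CpGs) had 77.4% and 82.2% in the JL3 libraries, and there another library, paternal P9 deletion replicate 1, reached 81.3%. At 78876659 to 78877104 (7 CpGs, paternal table) the JL3 libraries had 59.8% and 60.7%, against 2.87% through 10.5% to 21.2%. At 266782965 to 266783033 (11 CpGs, paternal table) they had 64.8% and 68.7%, against 6.10% through 13.8% to 26.5%, and at the maternal-table region with the same start (10 CpGs) 19.9%, 25.8% and 60.0%, against at most 13.3%. Other places differed between the tables. At 198700639 to 198700912 (26 CpGs, paternal table) the JL3 libraries had 28.3% and 30.1%, against at most 6.06%, while the overlapping maternal-table region (198700578 to 198701040, 40 CpGs) had 18.1%, 0.822% and 1.47% in its JL3 libraries and 17.2% in a JL4 library. At 78877092 to 78878138 (9 CpGs, maternal table), beside the paternal-table region above, the JL3 libraries had 25.6%, 33.3% and 47.7%, against at most 24.4%. JL3 libraries were 1 WT and 2 deletion libraries of the maternal table and 1 and 1 of the paternal table. Their part in the deletion differences above was measured by leaving them out. The maternal table then had 0 calls on chromosome 1 and 47.1% of regions higher with the deletion, and the paternal table likewise 0 calls and 53.2%.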

How the data were processed

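Hypothalamus DNA of 24 libraries was sequenced after bisulfite treatment (TruSeq methylation kit, by the labels' protocols). The submitters' processing notes name the builds rn6 and Rnor_6.0. Which aligner, smoother and region caller were used is not given in those sources. For every library the authors deposited the smoothed level of each region, a fraction, beside the region's number of CpGs. Smoothing shares information between neighbouring CpGs, so a level is not a raw read share, and no interval from counts can be given. Fractions were multiplied to percent for the text.

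All regions of a table with levels (16243, 18335 and 13874) were fitted together with limma 3.58.1 in R 4.3.3, with a variance trend, two-sided, and Benjamini-Hochberg adjustment over the table. Terms were genotype and age, or parental label and age in the control table. A difference is the fitted one, adjusted for the other term, and can differ slightly from that of the plain means. Library means were compared by exact permutation within age. Position-named regions were, per table and contrast, the 4 of lowest p, the longest, the richest in CpGs, and overlapping pairs with large differences in both tables. Regions and contrasts were chosen with earlier results of these data known. Alternatives were other covariates, the logit scale, regions of at least 10 CpGs, label-matched libraries, 1 library left out and, added after seeing the data, the JL3 name series. The scripts were tested on simulated data. The RNA counts of the series were not used here, and regions outside chromosomes 1 to 20 entered only the fits over whole tables. Sequences and gene annotation of rn6 were not used here.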

Additional observations from a re-analysis of the deposited data

Results flagged for a closer look

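Single libraries were compared with the others of their group at regions named by rule or singled out for a large difference. The same was done for the gap between chromosome 1 and the other autosomes. This made 100 groups of 4 to 10 libraries, of which chance alone flags about 1 in 20, and 2 values stood apart. At 123078759 to 123079607, 1 of the regions with opposite signs in the maternal and paternal tables, maternal P2 WT replicate 2 had the lowest WT level of the maternal table, 54.7%, and the next was 60.8% (n = 6). At 221152625 to 221153369 maternal P2 WT replicate 1, a JL3 library, had the highest WT level of the maternal table, 97.6%, and the next was 35.3% (n = 6). The deletion minus WT difference at that region was 20.4 percentage points (SE 13.7, limma adjusted p = 0.643), and it was named after its values were seen. The 2 JL3 deletion libraries of the table were also high there, at 88.0% and 90.2%. The difference was 7.19 points with name series as a term, -8.52 within JL3 and -1.91 within JL5, and 32.6 without maternal P2 WT replicate 1.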

How the results depend on the processing

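No paired analysis was possible because the labels give the libraries no replicate numbers, and the numbers used here only name them. Differences at the regions named by rule or singled out for a large difference kept their direction and their side of the threshold in 387 refits with other settings and 585 with 1 library left out, and not in 1 and 3; regions named only for the JL3 series or as neighbours with small differences were not counted. The exceptions, besides the call at 36750550 given above, were 11904450 to 11907451 (control table, -1.2 points without the JL3 libraries) and 11906731 to 11907334 (paternal table, from -1.75 points without maternal P9 deletion replicate 1 to 11.1 without maternal P9 WT replicate 1, and also below 0 without paternal P9 WT replicate 1). Most regions in that tally were picked from these same data for a low p or a large difference, and none was called. Keeping their direction and staying uncalled was therefore likely beforehand, so the tally cannot show stability. Sizes moved more, as at 65540237 in the paternal table, with 14.4 points, 37.4 at P2 and 2.87 at P9. Of the summary values, 92 of 110 under other settings and 180 of 190 with 1 library left out stayed on their side of the threshold or within the set range. Many of these values were counts of 0 calls that stayed at 0, so this tally cannot show stability either.

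Calls for the deletion in the paternal table ranged from 0 to 1 of 1527 regions with 1 library left out. The share of regions higher with the deletion in the maternal table was 49.3% with P9 libraries only (1 against 1) and 44.8% (without maternal P2 deletion replicate 3) to 49.7% (without maternal P2 WT replicate 1) with 1 left out. In the paternal table it was 57.5% over regions of at least 10 CpGs, 46.4% at P2 and 56% at P9, and 48.1% (without paternal P9 WT replicate 3) to 55.9% with 1 left out. The genotype difference in the gap between chromosome 1 and the other autosomes was 0.109 points (at least 10 CpGs) and 0.915 points (weighted by CpGs) in the maternal table, where it was otherwise negative and ran from -0.219 to -0.0802 with 1 left out. For the paternal table it was 0.232 with strata of age and name series (exact permutation p = 0.0417) and 0.129 to 0.374 with 1 left out, and from 0.241 to 0.505 for the label difference of the control table. JL3 calls were 23 and 25 (control and paternal tables) when only regions of at least 10 CpGs were fitted, and 18 on the logit scale (paternal). With 1 library left out they ran from 32 to 46, from 19 to 37 and from 20 to 39. Counting only regions of at least 10 CpGs, density was 0.681, 0.813 and 0.566 per Mb, and the densest 5 Mb bin held 22.6, 28.6 and 22.4 per Mb. Of maternal-table regions 3.06% overlapped a paternal-table region reciprocally by at least 50% and 16% within 1 kb. Differences over 10 points numbered 67 higher and 105 lower (maternal table) and 37 and 36 (paternal) with label-matched libraries only, and 93 and 106 in the paternal table at P2. Density over fewer regions, the densest of smaller bins and stricter or looser overlap shift by construction. The causes of the other shifts were not tested. The age dependence in the maternal table could not be fitted without maternal P9 WT replicate 2 or maternal P9 deletion replicate 2. Without coverage, what depth limits is unknown.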
